A study of Mus musculus with 4 samples.

Results

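Claudins are membrane proteins of tight junctions, and 10 of them (*Cldn1*, *Cldn3*, *Cldn4*, *Cldn5*, *Cldn6*, *Cldn7*, *Cldn9*, *Cldn10*, *Cldn11* and *Cldn12*) were followed in E14.5 cochlear ducts that had lost *Tbx2* in the prosensory domain. The genes were chosen by symbol from the array annotation, with every probe that carries the symbol, and make up 10 of 29924 gene names on the array. They were read by 12 probes, since *Cldn4* and *Cldn7* have 2 each. Of the 10 genes, 9 were bright enough to be tested, among 21042 genes tested in all.

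Tight junctions seal the space between neighbouring epithelial cells, and the claudins present in the strands set how tight the seal is and which ions can pass between cells. In the inner ear they keep the potassium-rich endolymph inside the cochlear duct apart from the perilymph around it. Some claudins are typical of epithelia, whereas *Cldn5* is best known from the endothelium of blood vessels and *Cldn11* from myelin, Sertoli cells and the basal cells of the stria vascularis.

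RNA came from pools of NMRI cochlear ducts dissected at E14.5, after a single dose of 4 mg tamoxifen to the dams at E12.5. By the study's methods the spiral ganglion had been removed. Mutant pools had the genotype Sox2(creERT2);Tbx2(fl/fl), named *Sox2-Tbx2LOF*, and control pools Tbx2(fl/n.d.), which the study's methods describe as cre-negative. CreERT2 is a tamoxifen-dependent recombinase expressed from the *Sox2* locus, so that recombination is restricted to cells with *Sox2* activity, and mutants differ from controls in carrying it. Each of 4 Agilent arrays compared 1 mutant with 1 control pool in opposite dyes. Arrays 1 and 2 held female pools and arrays 3 and 4 male pools, and within each sex the dyes were swapped, with the mutant in Cy5 on arrays 1 and 3 and the control in Cy5 on arrays 2 and 4. *Esr1*, whose ligand-binding part is fused to Cre in the mutant allele, was higher in mutants by 2.17 on the log2 scale (limma, adjusted p = 6.0e-06), whereas *Tbx2* differed by -0.12 (adjusted p = 0.12) and *Sox2* by 0.01 (adjusted p = 0.93). Pools hold mixed cells, so fewer cells of a type and less RNA per cell cannot be told apart.

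The signal of each claudin is what its 60-base probes capture, and the sequences of the genes that the comparison turns on are shown because a change can be read only through them. The first 30 bases of the probes for *Cldn5* (chr16:18778046-18778105, mm9, plus strand), *Cldn11* (chr3:31062922-31062981, plus strand) and *Cldn4* (chr5:135422135-135422194 and chr5:135421347-135421406, minus strand) read 5′ to 3′ as follows.
Cldn5: tcctactgagatcctgggggcactagatgc
Cldn11: atatgcaataaataatagtacgaagattat
Cldn4, brightest probe: acaacgtcatccgcgacttctacaacccta
Cldn4, other probe: accctactaatgaatttctgtagagtggat
No run of 20 bases in any of the 12 probes occurred in a probe for another gene, and the longest run shared with a probe for another claudin was 13 bases, between *Cldn9* and *Cldn14*. The *Cldn3* and *Cldn4* probes lie 41.1 kb apart on chromosome 5, and those of *Cldn6* and *Cldn9* 1.1 kb apart on chromosome 17.

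The 250 bases before the annotated start of *Cldn5* (GRCm38.p6 chr16:18776597-18776846, plus strand), *Cldn11* (chr3:31149670-31149919, plus strand) and *Cldn4* (chr5:134946935-134947184, minus strand) were taken from the RefSeq-based promoter table, which uses a later build than the probes, and are printed for the 2 genes that rose and for the gene next in size. They were searched on both strands for a T-box motif (AGGTGTGA), a Grainyhead-like motif (AACCNGTT) and an E-box (CAGGTG), of which the T-box and E-box letters can overlap. Capitals mark matches.
Cldn5: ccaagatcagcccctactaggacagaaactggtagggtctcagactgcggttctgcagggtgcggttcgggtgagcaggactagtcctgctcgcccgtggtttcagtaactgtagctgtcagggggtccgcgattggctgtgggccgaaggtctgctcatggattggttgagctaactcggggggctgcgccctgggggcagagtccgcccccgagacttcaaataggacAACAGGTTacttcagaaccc
Cldn11: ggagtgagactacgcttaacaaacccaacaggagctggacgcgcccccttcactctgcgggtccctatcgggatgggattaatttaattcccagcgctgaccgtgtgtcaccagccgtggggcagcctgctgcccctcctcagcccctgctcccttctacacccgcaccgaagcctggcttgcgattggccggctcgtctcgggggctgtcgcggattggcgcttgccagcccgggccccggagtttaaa
Cldn4: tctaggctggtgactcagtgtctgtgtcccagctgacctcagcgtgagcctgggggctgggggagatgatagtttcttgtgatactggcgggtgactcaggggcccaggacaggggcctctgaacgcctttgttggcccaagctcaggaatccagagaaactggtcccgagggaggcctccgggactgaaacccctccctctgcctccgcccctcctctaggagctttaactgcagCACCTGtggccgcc
*Cldn5* held 1 Grainyhead-like match, a motif found in 1.79% of all 32851 promoter windows of this length, and *Cldn4* held 1 E-box, found in 17.2% of them. *Cldn11* held none of the 3 motifs. Of 13 windows for 9 members (the table has no entry for *Cldn9*), 3 held an E-box, 1 a Grainyhead-like motif and 0 the T-box motif, found in 1.12% of all windows. A match is a description of letters and says nothing about binding.

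*Cldn5* and *Cldn11* were higher in *Sox2-Tbx2LOF* ducts, by 1.16-fold and 1.14-fold, and none of the 9 tested claudins was lower. Neither change reached the minimum of 1.5-fold that the study's methods set, and the 95% interval of every tested claudin lay inside that fold in both directions. The 2 of 9 higher claudins stand beside 2.26% of all genes higher, 5.18% called in either direction and 0.442% called at 1.5-fold or more. The median log2 ratio was 0.09 over the 9 claudins and 0.00 over all genes tested, and 7 of the 9 ratios were above 0. At an unadjusted p below 0.05, 4 of the 9 passed, beside 20.2% of all genes tested (4258 of 21042).

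**Figure D1:**
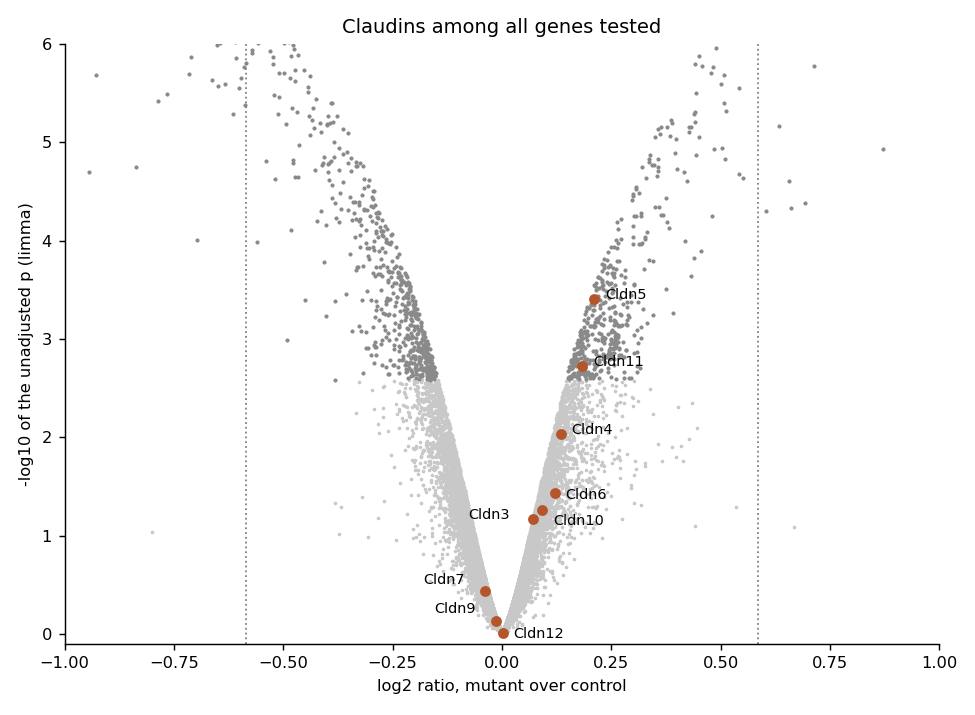
Each point is a gene, placed by its log2 ratio of mutant over control and the -log10 of its unadjusted p from limma. Dark grey points have an adjusted p below 0.05, dotted lines mark 1.5-fold, brown points are the 9 claudins, and 83 genes lie outside the axes. *Cldn5* and *Cldn11* lie among the called genes and inside the dotted lines.

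*Cldn5* had the largest ratio of the 9. Its normalized log2 signal in mutant pools was 13.57, 13.66, 13.73 and 13.48 on arrays 1 to 4, against 13.40, 13.47, 13.47 and 13.26 in the control pools. Every mutant pool was above every control pool, so the groups did not overlap. The margin was small, with the lowest mutant pool at 13.479 and the highest control pool at 13.474. How many of all genes show no overlap was not counted. The 4 log2 ratios were 0.17, 0.19, 0.26 and 0.22, with a mean of 0.21 ± 0.04 (SD, n = 4), an SE of 0.04 and a 95% interval of 0.13 to 0.29 (limma, adjusted p = 0.017). Of all genes tested, 4.29% had a larger absolute ratio.

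*Cldn11* gave log2 signals of 12.09, 12.16, 12.28 and 12.24 in mutant pools and 11.85, 11.94, 12.20 and 12.06 in control pools. On each array the mutant was the higher of its pair, but the male control pool of array 3 was above the female mutant pools, so the groups overlapped. The log2 ratios were 0.25, 0.22, 0.08 and 0.18, with a mean of 0.18 ± 0.07 (SD, n = 4), an SE of 0.04 and a 95% interval of 0.09 to 0.28 (limma, adjusted p = 0.041).

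Both calls depended on the fit and on single arrays. *Cldn5* kept its call without array 2 but had an adjusted p of 0.063, 0.10 and 0.060 without arrays 1, 3 and 4, and *Cldn11* had 0.15, 0.098, 0.070 and 0.098 without arrays 1 to 4. Neither passed with Agilent's processed signals (0.062 for *Cldn5*, 0.12 for *Cldn11*), without a dye term (0.087 and 0.19) or with the 2 pools of an array treated as unpaired (0.39 and 0.61). The direction was upward in all of these fits, but most of them could not have turned it. Dropping the dye term or the pairing leaves the ratio itself unchanged. With all 4 array ratios above 0, leaving out an array could not change the sign. With Agilent's processed signals the log2 ratios were 0.21 for *Cldn5* and 0.19 for *Cldn11*.

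**Figure D2:**
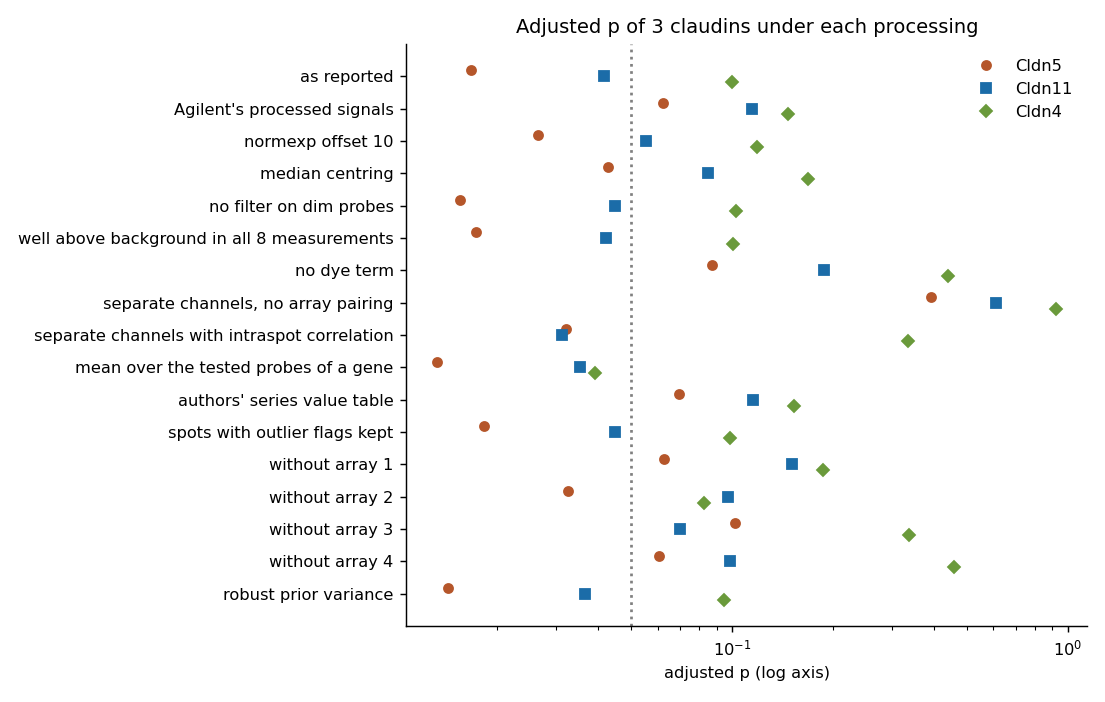
Adjusted p (log axis) of *Cldn5*, *Cldn11* and *Cldn4* under the reported processing and each alternative, with the dotted line at 0.05. *Cldn5* lies left of the line in 9 of 16 alternatives, *Cldn11* in 6 and *Cldn4* in 1.

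The *Cldn11* probe lies 3.49 Mb from that of *Sox2*, where the mutant allele carries CreERT2. Of 67 tested genes within 5 Mb of *Sox2*, 11 were higher and 7 lower, or 26.9%, against 5.18% of all genes. Within 5 Mb of *Cldn11*, a window that overlaps the first, 6 of 50 other tested genes were higher and 6 lower. Within 1 Mb of it, 0 of 9 were higher and 1 lower. The part of this position in the *Cldn11* ratio was not tested. Around *Cldn5* on chromosome 16, 2 of 164 genes within 5 Mb were higher and 3 lower.

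Some endothelial and mesenchymal markers were higher in the mutant as well, beside 2.26% of all genes tested. Of 14 endothelial markers, 2 were higher (*Esam*, an adhesion molecule of vessels, by 0.16 with adjusted p = 0.047, and *Egfl7*, secreted by endothelium, by 0.17 with adjusted p = 0.037) and 0 lower, with a median log2 ratio of 0.09. Their summed linear signal ranged from 153456 to 165025 in mutant pools and from 143785 to 154855 in control pools. The mutant sum exceeded the control sum on 4 of 4 arrays. All 14 were well above background in all 8 measurements. Such a sum weighs the brightest genes most, here *Egfl7* (mean log2 signal 15.89 in mutant pools). Sums of the mesenchymal, melanocyte and otic lists were also higher in the mutant on 4 of 4 arrays. Those of the Schwann cell, neuronal and blood lists were higher on 2 of 4. Of the 14 endothelial ratios, 12 were above 0, as were 10873 of all 21042 genes tested. The largest of the 14 was that of *Sox18*, 0.18 (limma, adjusted p = 0.052). *Pecam1*, a defining endothelial marker, had a log2 ratio of -0.01 and *Cdh5*, the endothelial cadherin, 0.11 (adjusted p = 0.13). *Emcn*, an endothelial sialoglycoprotein, had a ratio of -0.13 and was below its control on 4 of 4 arrays (adjusted p = 0.078). Of 11 mesenchymal markers, 1 was higher (*Col1a1*, a collagen chain, by 0.27 with adjusted p = 0.0045) and 0 lower, and their sum ranged from 393858 to 410496 in mutants and from 347543 to 378604 in controls. The part of these markers in the *Cldn5* ratio was not tested.

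For comparison with the following lists, 5.18% of all genes tested were called in either direction. Of 8 markers of Schwann cells and their precursors, 1 was higher and 3 were lower. Of 10 neuronal markers, 1 was higher and 7 lower. Of 7 melanocyte markers and of 6 blood markers 0 passed, with 2 and 4 at an unadjusted p below 0.05 (20.2% of all genes), and of 12 genes of the otic epithelium 2 were higher and 4 lower. The part of these cell types in the claudin ratios was not tested.

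*Cldn4* and *Cldn3*, claudins of many barrier epithelia, are neighbours in the genome, and neither passed the test when read by its brightest probe. The brightest *Cldn4* probe gave 9.19, 9.39, 9.25 and 9.79 in mutant pools and 9.15, 9.26, 9.16 and 9.52 in control pools. The mutant was higher on 4 of 4 arrays and the groups overlapped, with a mean log2 ratio of 0.13 ± 0.10 (SD, n = 4; limma, adjusted p = 0.10). The other *Cldn4* probe, 788 bases away, gave ratios of 0.06, 0.27, 0.11 and 0.34 and a mean of 0.20 ± 0.13 (SD, n = 4). Fitted over all 27963 tested probes, of which 3.99% were called, this probe had an adjusted p of 0.028 and the brightest probe 0.12. The mean of both probes gave 0.17 with an adjusted p of 0.039, so that the call for *Cldn4* rests on which probe is read. *Cldn3* had log2 signals between 15.37 and 15.68 in mutants and between 15.40 and 15.50 in controls, with a mean ratio of 0.07 ± 0.13 (SD, n = 4; limma, adjusted p = 0.29).

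*Cldn6* and *Cldn9* are the other pair of neighbours. *Cldn6*, a claudin of embryonic epithelia, gave 14.11, 14.30, 14.20 and 14.41 in mutant pools and 14.05, 14.27, 14.11 and 14.11 in control pools. The mutant pool exceeded its control on each of the 4 arrays, by 0.03 to 0.30, with a mean log2 ratio of 0.12 ± 0.12 (SD, n = 4; limma, adjusted p = 0.21). Single arrays weighed on the fitted ratio, which was 0.05 without array 4 and 0.19 without array 2 (limma, adjusted p = 0.78 and 0.054). These fits weigh both dye orientations equally, so the values are not plain means of the arrays left. *Cldn9*, a claudin required for hearing in mice, had ratios of -0.11, -0.03, 0.05 and 0.04 and a mean of -0.01 ± 0.07 (SD, n = 4; limma, adjusted p = 0.89). Its levels ranged from 13.28 to 13.60 in mutants and from 13.39 to 13.62 in controls.

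The ratios of *Cldn7*, *Cldn12* and *Cldn3* changed sign with the dye. On the arrays with the mutant in Cy5 all 3 were below 0, and on those with the mutant in Cy3 all 3 were above 0. *Cldn7*, a basolateral claudin of epithelia, had ratios of -0.26, 0.17, -0.12 and 0.06, a mean of -0.04 and a 95% interval of -0.13 to 0.06 (limma, adjusted p = 0.66). Its other probe, well above background in 7 of 8 measurements, had a mean of -0.01. *Cldn12*, a claudin linked to calcium permeability, had ratios of -0.10, 0.19, -0.15 and 0.07, a mean of 0.00 and an interval of -0.09 to 0.09 (limma, adjusted p = 0.99). *Cldn10*, which forms ion-selective pores, had ratios of 0.03, 0.18, -0.12 and 0.28. Their mean was 0.09, with an interval of -0.0026 to 0.19 (limma, adjusted p = 0.26). Its fitted ratio without array 1 was 0.05. That fit weighs both dye orientations equally, so the value is not the plain mean of the arrays left. The fitted dye term was -0.15 for *Cldn7*, -0.14 for *Cldn10*, -0.13 for *Cldn12* and -0.11 for *Cldn3* on the log2 scale, and 0.00 for *Cldn5* and -0.02 for *Cldn11*.

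*Cldn1*, a claudin of the epidermal barrier, was well above background in 1 of 4 mutant and 2 of 4 control pools and was not tested. Without the filter on dim probes its log2 ratio was 0.05 (limma, adjusted p = 0.67).

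**Figure D3:**
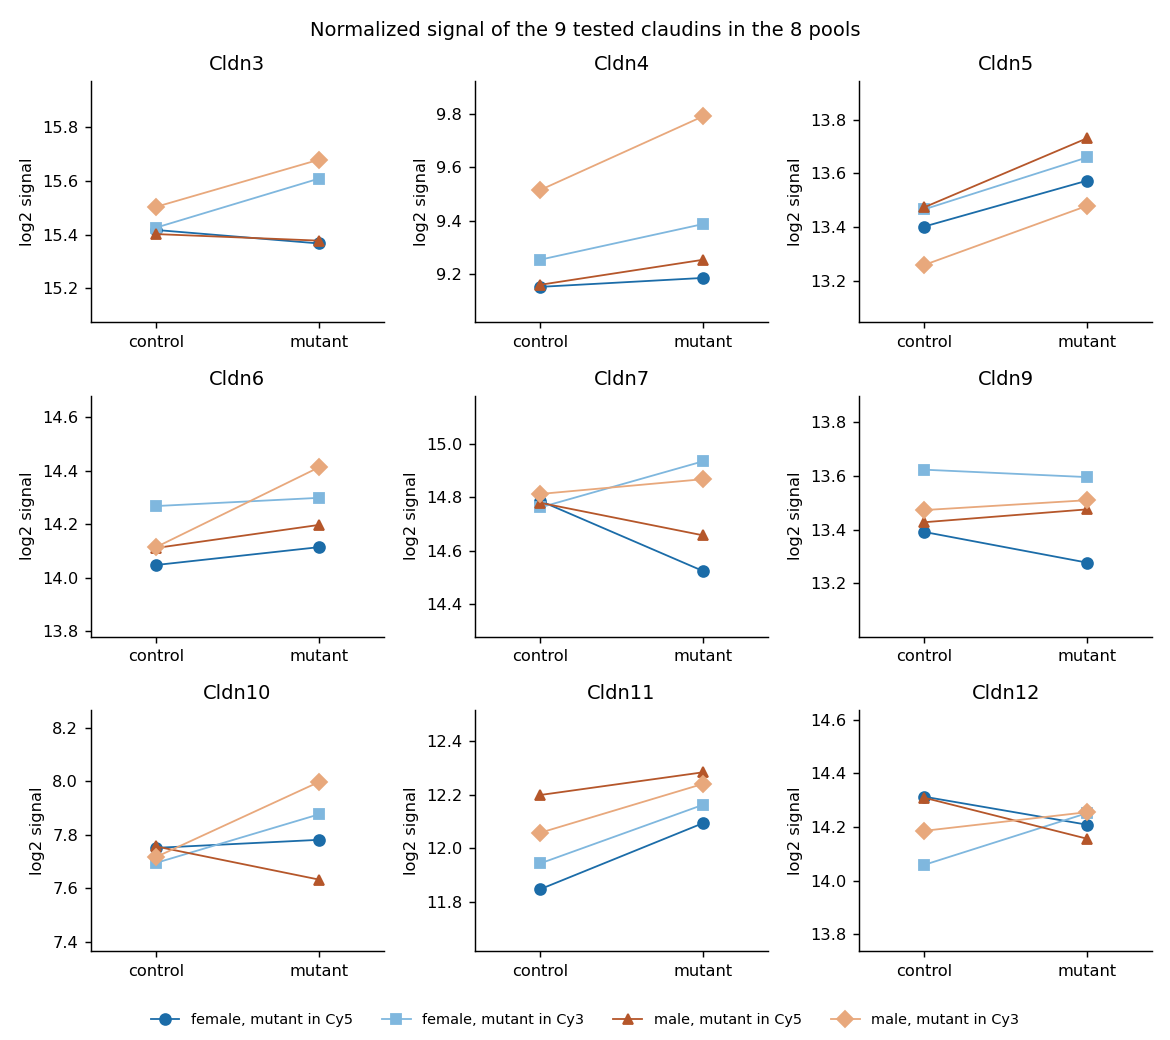
Normalized log2 signal of the 9 tested claudins in control and mutant pools, with a line joining the pools of an array and the same span of the vertical axis in each panel. All 4 lines rise for *Cldn4*, *Cldn5*, *Cldn6* and *Cldn11*, and for *Cldn3*, *Cldn7* and *Cldn12* the lines rise where the mutant was in Cy3 and fall where it was in Cy5.

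**Figure D4:**
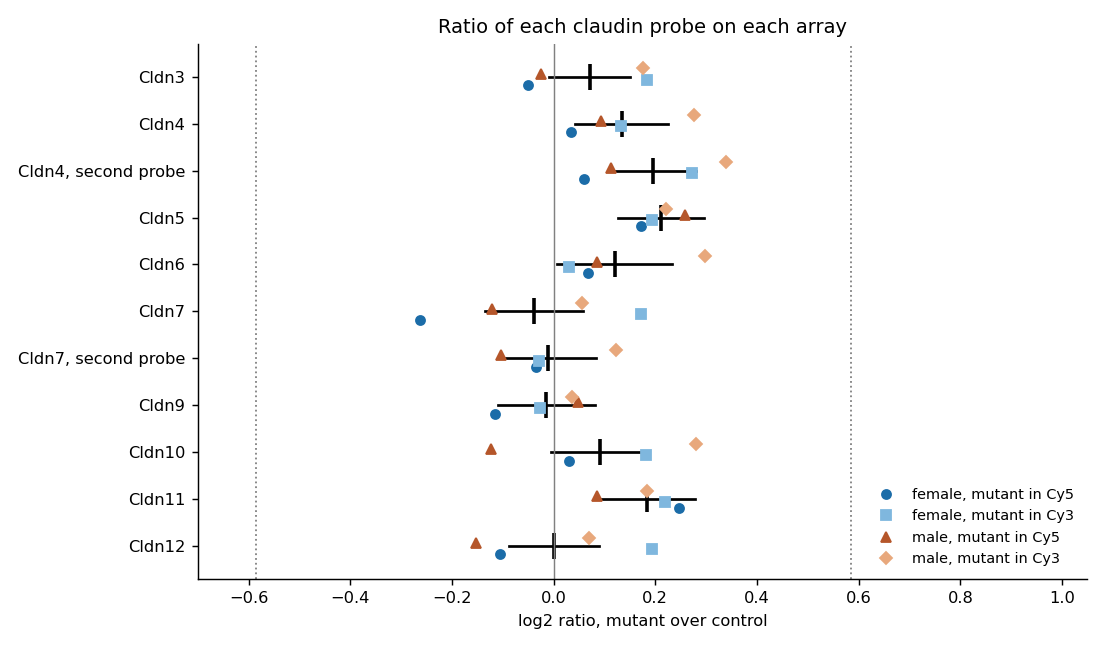
Log2 ratio of mutant over control on each array for the 11 tested claudin probes, with the mean (bar) and 95% interval (line) from the fit over all probes and dotted lines at 1.5-fold. No interval reaches a dotted line, and the 4 arrays lie closest together for *Cldn5*.

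Female and male pools lay on different arrays, so the sexes were compared between arrays, 2 for each sex. The mutant-over-control ratio did not pass a test of difference between the sexes for any of the 9 claudins, nor for any gene tested (0% called; limma, 0 of 9 claudins and 558 of 21042 genes, or 2.65%, at an unadjusted p below 0.05). The level in female against male pools was called for 0.0618% of genes and for 0 of the 9 claudins. At an unadjusted p below 0.05 this level differed for 3.36% of genes (707 of 21042) and for 1 of the 9 claudins. That was *Cldn11*, with a log2 level of 12.01 in female and 12.20 in male pools, a difference of -0.18 (limma, unadjusted p = 0.030, adjusted p = 1.00).

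The other claudins on the array did not pass the test. Of 22 further claudin genes, 11 were tested and 0 were called (2 at an unadjusted p below 0.05, limma, beside 20.2% of all genes), with a median log2 ratio of -0.01. The 3 largest ratios were those of *Cldn20* (-0.17, adjusted p = 0.052), *Cldn22* (-0.12, adjusted p = 0.17) and *Cldn34c1* (0.07, adjusted p = 0.33). *Cldn20* and *Cldn22* were lower in the mutant on 4 of 4 arrays. The groups of *Cldn20* did not overlap, with the highest mutant pool at 7.57 and the lowest control pool at 7.63. The share of all genes without overlap was not counted, so this separation cannot be weighed against it.

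Partners of the claudins in the tight junction showed 1 call, or 3.7%, beside 5.18% of all genes called. Of 27 such genes on the array, *Magi3*, a scaffold protein, was higher by 0.21 (limma, adjusted p = 0.046; higher on 3 of 4 arrays) and 0 were lower, with a median of -0.01. It did not pass with Agilent's processed signals, nor without array 1, 3 or 4, when 0 partners were called, whereas 4 were called without array 2. *Ocln*, the junction protein occludin, had a ratio of -0.05, *Tjp1*, the scaffold ZO-1, -0.09, and *Marveld2*, the protein of tricellular junctions, -0.05, with adjusted p values of 0.62, 0.31 and 0.45. Of 17 genes of epithelial identity, 0 were called (6 at an unadjusted p below 0.05, beside 20.2% of all genes), with a median of 0.05. *Epcam*, an epithelial adhesion molecule, had a ratio of 0.02 and *Cdh1*, the epithelial cadherin, 0.17 ± 0.24 (SD, n = 4), with adjusted p values of 0.89 and 0.13.

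**Figure D5:**
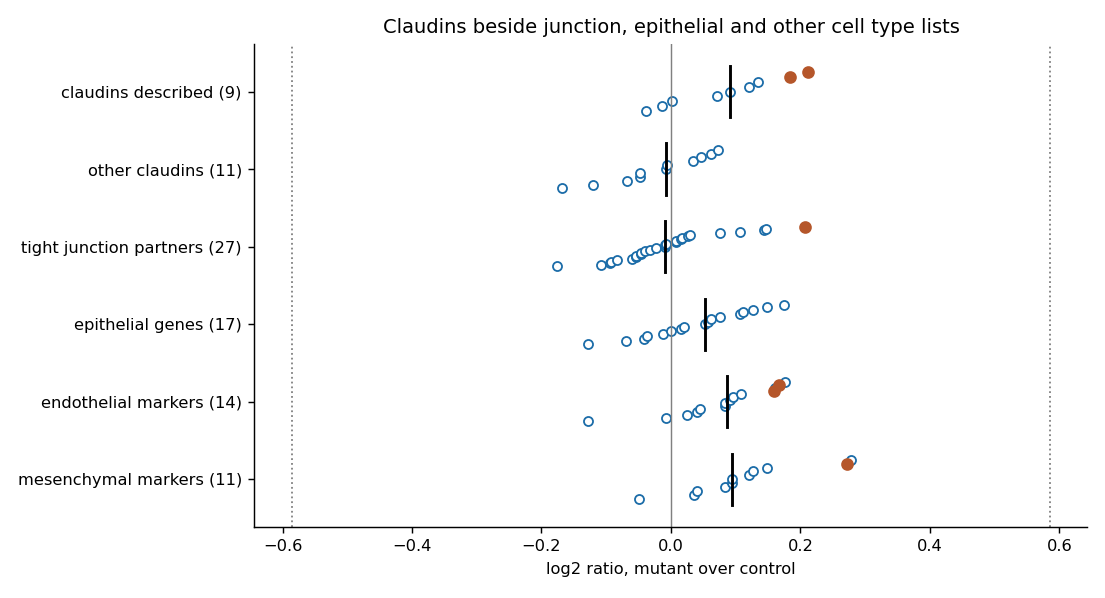
Log2 ratio of mutant over control of each tested gene in 6 lists, with the number of genes in brackets, the median as a black line and genes with an adjusted p below 0.05 filled. The 2 filled claudins lie to the right of the others, and no gene of these lists reaches the dotted 1.5-fold lines.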

How the data were processed

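The authors deposited Agilent Feature Extraction 10.7.3.1 output, which holds per dye the raw intensity of each spot and of the area around it, and an intensity processed by Agilent's software. A deposited value table holds a score, a signed fold of mutant over control whose normalization is not given in the sources used here. Flags per spot were also deposited. The header names a custom design, whereas the methods name another Agilent array, so probe names, symbols and mm9 positions follow the files. All 4 arrays lie on 1 slide and 1 scan, and their number limits the precision.

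Background was corrected with limma 3.58.1 (R 4.3.3; normexp, offset 50) and log2 ratios were normalized by loess, without control or outlier-flagged spots. Unflagged spots were averaged, and a probe was tested where at least 4 of 8 measurements were well above background (50% or more of their spots), with the brightest probe for each gene. lmFit and eBayes used genotype and dye, with Benjamini-Hochberg adjustment over all genes and a threshold of 0.05. Levels are loess and Aquantile normalized log2 channels. Pools of an array are paired by hybridisation. P-values measure only spread between these pools, that of each gene moderated by that of all genes tested. The fit had 2 residual and 5.65 prior degrees of freedom. Alternatives are given in the closing section.

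The fit was tested on simulated data. With the spread of each gene as estimated, false calls took a larger share of all calls than the threshold names, and with spreads drawn from the fitted prior the share was near it. A robust prior was then added as an alternative, chosen after seeing the data. Adjusted p values near 0.05 are to be read with this in mind.

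All members were named with all their probes, other claudins by the 3 largest ratios, and listed junction and epithelial genes where called, with 5 of them named in any case. *Pecam1*, *Cdh5*, *Emcn*, *Esam*, *Egfl7*, *Sox18* and *Col1a1* were named from the cell type lists outside this rule, after their values were seen. The members and lists were chosen with earlier results of these data known.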

Additional observations from a re-analysis of the deposited data

Results flagged for a closer look

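The ratio of *Cldn9* was below 0 on both female arrays and above 0 on both male arrays, a difference of female minus male of -0.11 on the log2 scale. The test of that difference did not pass (limma interaction, unadjusted p = 0.21, adjusted p = 1). Each sex is represented by 2 arrays. No sample stood far from the rest of its group in 27 groups of 4 values.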

How the results depend on the processing

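The number of claudins called, 2 in the reported fit, was 0 with Agilent's processed signals, without a dye term, with the separate channels unpaired and with the authors' value table, 1 with a normexp offset of 10 and 1 with median centring, and 0 to 1 when single arrays were left out. It stayed at 2 with no filter on dim probes, the stricter filter, the intraspot correlation, flagged spots kept and the robust prior, and the mean over probes gave 3. The cause of the lost calls was not tested. At 1.5-fold, 0 claudins were called in every fit that was run. Tight junction partners called fell from 1 to 0 with Agilent's processed signals and ranged from 0 to 4 without single arrays. The *Cldn5* ratio ranged from 0.18 to 0.23 and that of *Cldn11* from 0.14 to 0.22. Without single arrays the fitted ratio weighs both dye orientations equally and is not the plain mean of the arrays left. For *Cldn9* this fitted ratio ranged from -0.0551 to 0.0264, and its sign turned without array 1 or 2. For *Cldn12* it ranged from -0.0296 to 0.0322. Its sign turned without array 1 or 2 and also with median centring (-0.0284). No other tested claudin changed sign. Over all genes, 1091 were called, and between 217 (unpaired channels, no replicate block) and 1278 (without array 2) in the alternatives. Without the pairing of pools by array, the adjusted p was 0.39 for *Cldn5* and 0.61 for *Cldn11*. Slide and scan could not be fitted as blocks, since all arrays share them, and the sex difference could not be tested with an array left out, for lack of residual degrees of freedom.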
